A study of Sus scrofa with 8 samples.

Results

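The genes described here write, copy, read and remove DNA methylation. They were followed in the livers of young and old sows of the Yanan pig, an indigenous Chinese breed. The young livers (YL) came from 2 sows aged 180 days and the old livers (OL) from 2 sows aged 8 years, all female and healthy, and each liver gave 1 rRNA-depleted RNA-seq library. Per the study, the young sows had not yet had a litter and the old sows had many years of litters behind them. Age thus cannot be told apart from reproductive history. A list of 9 genes was matched by symbol to the Ensembl identifiers of the mRNA table, and 8 of them were found among its 21607 identifiers. TET2 had no identifier under its symbol and was not analysed here. All 8 genes were above 0 in enough libraries to be tested.

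Methyl groups on cytosine, mostly where a guanine follows, help to keep genes and repeats silent. DNMT3A and DNMT3B place new methyl groups, DNMT1 copies the pattern onto the new strand when DNA is replicated, and UHRF1 brings DNMT1 to the freshly copied sites. The TET enzymes oxidise the methylated base, TDG cuts out the oxidised forms so that repair puts back a plain cytosine, and MBD2 reads methylated DNA for the NuRD repressor complex. DNA methylation is known to drift with age in liver as in other tissues. Only transcripts were measured here, and DNA methylation itself was not.

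Values are CPM (counts scaled to a fixed library total) that are not divided by gene length, so levels were compared between livers and not between genes. Which reads make up that total is not given in the sources used here. The listed values of mRNAs summed to less in both old libraries than in both young ones, and so did those of lncRNAs. A gene with an unchanged share of the listed reads thus reads lower in OL on this scale. Lower values in OL are to be read with this offset. Between 28324675 and 52207648 reads on mRNAs and lncRNAs lay behind each library, and the old libraries were the shallower ones. The hepatocyte markers marked the tissue as liver in every library, with a summed level of 33107 to 53004 CPM over 9 genes. OL 1 stood apart from the other libraries in its interferon-stimulated genes, whose 7 matched members summed to 1524 CPM against 30.9 to 43.8 in the other 3. Named genes whose log2 fold change turned or moved by more than 1.5 times without OL 1 are also given without it, DNMT3B apart, for which no fold is given.

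In limma on log2(CPM + 1), none of the 8 genes passed the threshold of an absolute log2 fold change above 1 at an adjusted p-value below 0.05. Over all 16898 mRNAs tested 0 passed, which is 0% of them. The exact test of edgeR on recovered reads called 3.16% of all mRNAs and DESeq2 called 5.21%, and neither called any of the 8 genes. The quasi-likelihood test of edgeR called 0 mRNAs. At an unadjusted p-value below 0.05, limma had 1 of the 8 genes, TET3, which was higher in OL, against a background of 6.78% of mRNAs higher and 8.93% lower (1145 and 1509 mRNAs). After rescaling with TMM factors these were 1495 higher and 954 lower. Both old libraries lay above both young ones for 3 of the 8 genes (DNMT1, DNMT3B and TET3) and below both for 2 (TET1 and MBD2). For DNMT3B this order rests on equal reads, 2 each in YL 1 and OL 1, divided by different library totals. Over all mRNAs tested these shares were 24.4% and 25%. The 8 genes went both ways, 5 with a higher and 3 with a lower mean on the log2 scale, from -0.43 (MBD2) to 0.53 (TET3), and with a median of 0.06 against -0.02 over all mRNAs.

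**Figure D1:**
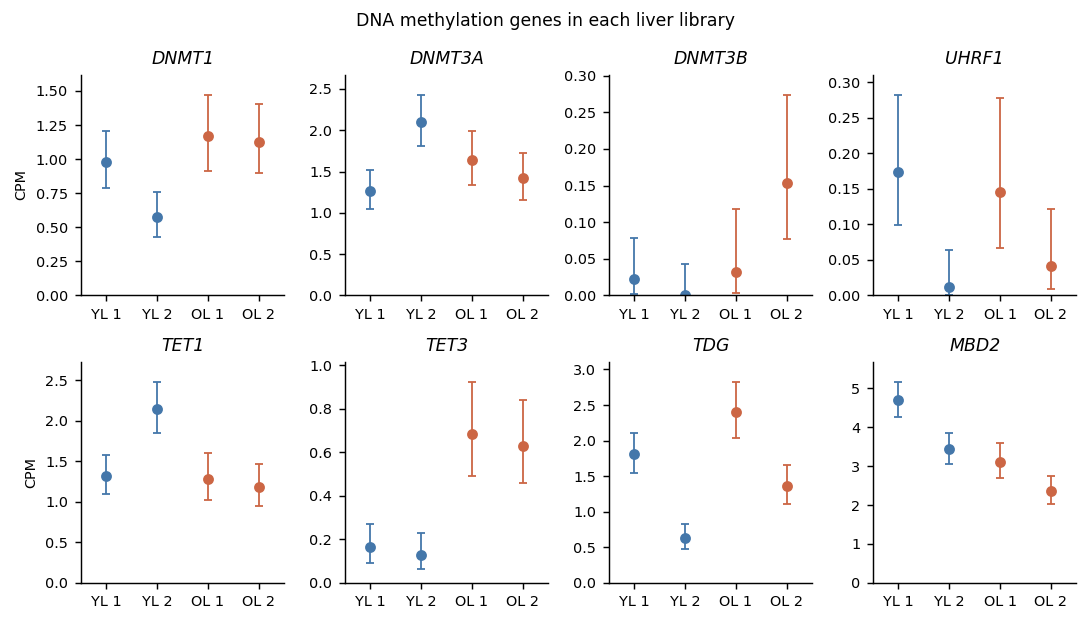
CPM (y axis, from 0, scaled separately for each gene) of the 8 DNA methylation genes in the 4 libraries (x axis), with exact 95% Poisson limits of the reads as bars, which cover counting error only. TET3 is the gene whose old libraries (0.626 and 0.682 CPM) stand well clear of the young ones (0.127 and 0.163 CPM), bars included.

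TET3, an oxidising enzyme of the TET family, showed the clearest separation between the ages. Its level was 0.163 CPM in YL 1 and 0.127 CPM in YL 2, from 15 and 11 reads. In OL 1 and OL 2 it was 0.682 and 0.626 CPM, from 42 and 45 reads, although these libraries were shallower. They also had more mRNAs above 0, with 17262 in OL 1 and 16978 in OL 2 against 15230 in YL 1 and 14291 in YL 2. Whether this bears on the level or share of TET3 was not tested. The mean of the old livers was 4.51 times that of the young livers, and the counting limits of each old library (at least 0.457 CPM) lay above those of both young libraries (at most 0.269 CPM). On log2(CPM + 1), a scale that understates the change of a gene this low, the fold change was 0.53 ± 0.11 (SE, n = 2 against 2, adjusted p = 0.239 in limma). On the recovered reads, the quasi-likelihood test of edgeR gave a log2 fold change of 2.36 with an adjusted p-value of 0.303. Its unadjusted p-value was 0.0139 in limma and was between 0.062 and 0.122 with 1 library left out, the highest without OL 1. The limma fold change stayed between 0.51 and 0.56 in these fits. The separation was thus larger than the spread between livers of one age, but it failed the correction for multiple testing in each of the 13 alternatives, where the adjusted p-value ranged from 0.141 to 0.586.

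TET1, the sister enzyme, did not follow TET3. It was at 1.317 and 2.149 CPM in YL 1 and YL 2 (121 and 186 reads) and at 1.284 and 1.183 CPM in OL 1 and OL 2 (79 and 85 reads). The old livers lay below both young livers, but YL 1 was close to them and the distance between the young livers was the larger one. The log2 fold change was -0.27 ± 0.21 (SE, adjusted p = 0.604 in limma), and it was -0.50 without YL 1, -0.05 without YL 2 and -0.16 with TMM factors.

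Because both TET genes were read in the same library, the make-up of their reads does not depend on how libraries were scaled. TET3 gave 11.03% of the TET1 and TET3 reads in YL 1 (exact 95% binomial interval 6.31 to 17.5) and 5.58% in YL 2 (2.82 to 9.77). In OL 1 its share was 34.7% (26.3 to 43.9) and in OL 2 34.6% (26.5 to 43.5). The share was nearly equal in the old livers, and the intervals of the old livers did not reach those of the young livers. Reads of PCR-amplified libraries are not independent molecules, so these intervals cover counting error only.

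**Figure D2:**
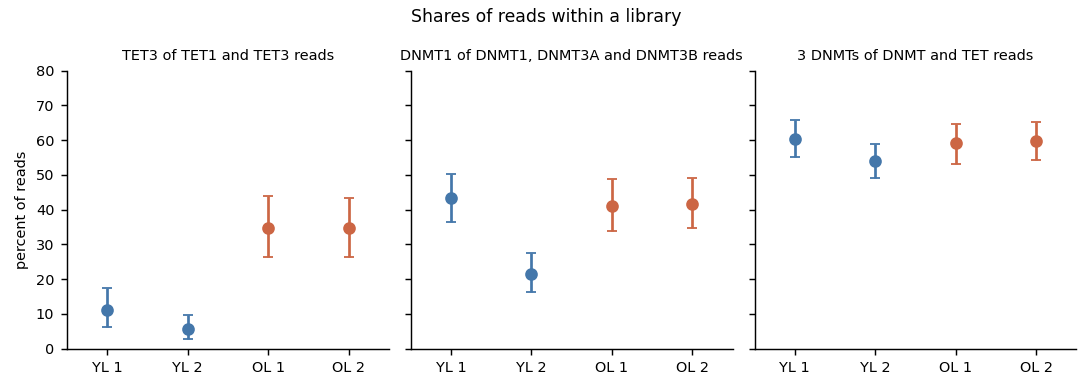
Percent of reads (y axis) within each of the 4 libraries (x axis), with exact 95% binomial intervals as bars. Shares are of TET3 among TET1 and TET3, of DNMT1 among DNMT genes, and of DNMT genes among DNMT genes, TET1 and TET3. The TET3 share is 5.58% and 11.03% in YL and 34.6% and 34.7% in OL, whereas the DNMT share lies between 54.1% and 60.5% in all 4.

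TDG, the glycosylase that acts after the TET enzymes, varied more between livers of one age than between the ages. It was at 1.807 CPM in YL 1 and 0.635 CPM in YL 2, and at 2.405 CPM in OL 1 and 1.364 CPM in OL 2. The age groups overlapped, since OL 2 lay between the young livers. The young livers differed beyond counting error, with limits of 1.54 to 2.10 CPM in YL 1 and 0.479 to 0.827 CPM in YL 2. The log2 fold change was 0.41 ± 0.38 (SE, adjusted p = 0.683 in limma). It was 0.80 without YL 1, 0.02 without YL 2, 0.14 without OL 1 and 0.67 without OL 2.

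Of the writers, DNMT1, the maintenance enzyme, was at 0.980 and 0.578 CPM in YL 1 and YL 2 (90 and 50 reads). It was at 1.170 and 1.128 CPM in OL 1 and OL 2 (72 and 81 reads). The old livers agreed closely and lay above both young livers, but the counting limits of YL 1 (0.788 to 1.204 CPM) overlapped with those of both old livers. The log2 fold change was 0.28 ± 0.17 (SE, adjusted p = 0.518 in limma), and it was 0.12 without YL 2 and 0.45 without YL 1. YL 2 was the low library here as it was for TDG.

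DNMT3A, the main writer of new methylation in adult tissues, was at 1.263 and 2.103 CPM in YL 1 and YL 2 and at 1.641 and 1.420 CPM in OL 1 and OL 2. Both old livers fell between the young livers, so the age groups overlapped in full. The log2 fold change was -0.07 ± 0.21 (SE, adjusted p = 0.922 in limma), with a 95% interval of -0.72 to 0.58. It was -0.13 without OL 1 and -0.30 without YL 1, and its sign turned to 0.16 without YL 2 and to 0.05 with TMM factors.

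DNMT3B, which acts mainly in early development, was near the limit of detection. It had 2 reads in YL 1, 0 in YL 2, 2 in OL 1 and 11 in OL 2, and OL 2 was thus the only library above 3 reads, the number taken as that limit. The 0 reads of YL 2 have an exact 95% Poisson upper limit of 0.0426 CPM, and the level in OL 2 was 0.153 CPM (0.0764 to 0.274). No fold is given for it, and its adjusted p-value was 0.734 (limma).

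UHRF1, the partner of DNMT1 at replicated DNA, was also low, with 16 reads in YL 1, 1 in YL 2, 9 in OL 1 and 3 in OL 2. Its level ran from 0.012 CPM in YL 2 to 0.174 CPM in YL 1, and both old livers lay inside that range. The log2 fold change was 0.00 ± 0.15 (SE, adjusted p = 0.993 in limma). The direction cannot be read from these reads, and it was -0.06 without OL 1.

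UHRF1 and DNMT1 are known to rise in cells that copy their DNA. The markers of dividing cells that could be matched, 6 of 10, summed to 1.12 and 1.68 CPM in YL and to 1.93 and 1.23 CPM in OL, so their sums overlapped between the ages. Among them, TOP2A and CCNB1 were lower in both old livers than in both young livers and the replication factors MCM2 and MCM5 were higher. CDK1 and BUB1 overlapped. Over all mRNAs tested, 25% were lower and 24.4% higher in this way. MCM2 had 1 and 9 reads in YL and 9 and 11 in OL, so its order rests on equal reads in YL 2 and OL 1. In OL 1 and OL 2, TOP2A had 12 and 5 reads and CCNB1 had 7 and 1. The part of these markers in the DNMT1 values was not tested.

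Taking the writers as a set, DNMT1 gave 43.3% of the reads of the DNMT genes in YL 1 and 21.6% in YL 2, and 41.1% and 41.8% in OL 1 and OL 2. YL 2 thus had less DNMT1 beside its DNMT3A than the other 3 livers. The DNMT genes together gave 60.5% and 54.1% of the DNMT, TET1 and TET3 reads in YL and 59.1% and 59.9% in the old livers. The exact binomial intervals of these shares overlapped between all 4 livers.

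MBD2, the reader, was the most deeply counted of the 8 genes, with 170 to 432 reads per library. It was at 4.704 and 3.443 CPM in YL 1 and YL 2 and at 3.120 and 2.367 CPM in OL 1 and OL 2. Both old livers lay below both young livers, but YL 2 and OL 1 were close and their counting limits overlapped (3.06 to 3.86 and 2.69 to 3.59 CPM). The log2 fold change was -0.43 ± 0.21 (SE, adjusted p = 0.443 in limma), and it ranged from -0.61 without YL 2 to -0.25 without YL 1, with -0.29 without OL 2 and -0.28 with TMM factors.

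**Figure D3:**
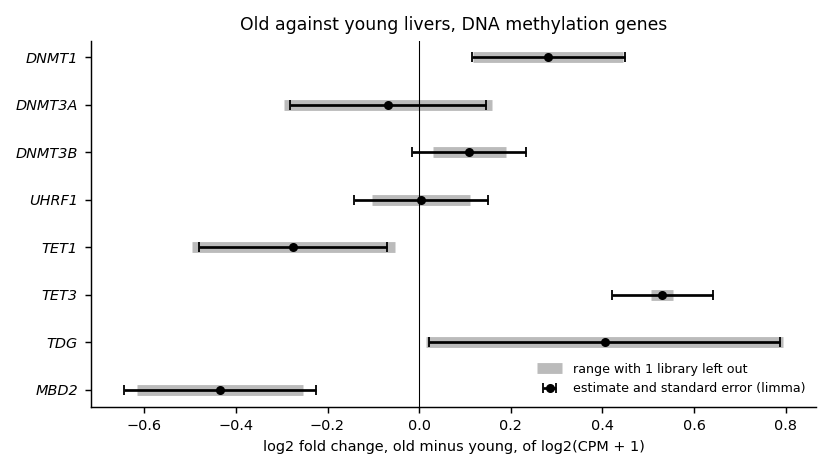
Log2 fold change of log2(CPM + 1), old minus young (x axis), of each of the 8 genes (y axis), with its standard error from limma as a black bar and its range with 1 library left out in grey. TET3 has the narrowest leave-one-out range relative to its size (0.51 to 0.56), and the ranges of DNMT3A and UHRF1 cross 0.

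Bulk liver holds several cell types, and fewer cells of a type cannot be told apart from less RNA per cell. The macrophage markers were higher in old livers, with a sum over 4 genes of 50.9 and 50.1 CPM in YL and 85.0 and 133.7 CPM in OL. Of these, CD68, MARCO and CD14 lay higher in both old livers than in both young livers, and CSF1R overlapped between the ages. Of 5 T and NK cell markers, 3 had old livers above young livers, and their sum overlapped between the ages (14.6 to 28.4 CPM in YL and 19.1 to 35.2 CPM in OL). Over all mRNAs tested, 24.4% had both old livers above both young livers. The hepatocyte markers summed to 47480 and 53004 CPM in YL and 33107 and 39170 CPM in OL. ALB was the largest part, at 29468 and 35205 CPM in YL and 16534 and 23978 CPM in OL. ALB, APOB and CPS1 were lower in both old livers, while APOA1, TTR, TF, FGB, HNF4A and ASGR1 overlapped between the ages. All marker values are on the CPM scale, on which the listed mRNAs summed to less in both old libraries. The part of these cell types in the TET3, MBD2 or DNMT1 values was not tested. The sum of 3 endothelial markers was also higher in both old livers (30.0 and 26.8 CPM in YL, 62.6 and 31.5 CPM in OL), but of its members only PECAM1 separated the ages. LYVE1 was at 36.5 CPM in OL 1 and at 7.49 to 8.90 CPM in the other 3 libraries, and KDR was at 2.26 CPM in OL 1 and at 9.87 to 10.56 CPM in the others. The sums of 3 B and plasma cell markers (at most 1.93 CPM) and of 3 erythroid markers (306 to 622 CPM) were lower in both old livers. Those of 2 cholangiocyte and 6 stellate cell markers overlapped between the ages, as did the 1 skeletal muscle marker that was matched, at 0.016 to 0.863 CPM. No matched marker of these lists was at 0 in all 4 libraries.

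Around the 8 genes, 6 lists of genes that work with them were read in the same fits. In these lists limma and both tests of edgeR called 0 genes. DESeq2 called 2 of the 44 tested, IDH1 and GADD45B, which is 4.55% against the 5.21% of all mRNAs. At an unadjusted p-value below 0.05 in limma, 3 of the 44 were higher (6.82%, against 6.78% of all mRNAs) and 5 lower (11.4%, against 8.93%). The TET enzymes need 2-oxoglutarate, which the isocitrate dehydrogenases supply, and are bound by OGT, the enzyme that attaches O-linked N-acetylglucosamine. Of 9 such genes 6 had an identifier, none passed the threshold, and 2 were lower at an unadjusted p-value below 0.05 while none was higher. IDH1, the cytosolic isocitrate dehydrogenase, was at 100.8 and 85.4 CPM in YL and at 28.0 and 29.5 CPM in OL. Its log2 fold change was -1.66 ± 0.14 (SE, adjusted p = 0.213 in limma), and it stayed between -1.78 and -1.54 with 1 library left out. DESeq2 called it, with a log2 fold change of -1.52 and an adjusted p-value of 0.000176, and was the only one of 14 alternatives that did, their adjusted p-values reaching up to 0.528.

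OGT was at 35.2 and 35.4 CPM in YL and at 19.1 and 11.2 CPM in OL, a log2 fold change of -1.21 ± 0.30 (SE, adjusted p = 0.259 in limma). IDH1 and OGT both had old livers below young livers by more than the spread within an age. IDH2, the mitochondrial enzyme, was not lower, with 12.5 and 12.8 CPM in the young and 29.2 and 13.1 CPM in OL, and OL 1 was the high library. Its log2 fold change was 0.60 ± 0.44 (SE, adjusted p = 0.599 in limma), and it was 0.05 without OL 1 and 1.15 without OL 2. The median of the list was 0.03, close to that of all mRNAs, and it was -0.13 without OL 2.

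Of 6 genes of the methyl donor S-adenosylmethionine 5 had an identifier, and 4 had a lower mean on the log2 scale in old livers (median log2 fold change -0.41, and -0.22 with TMM factors). Without OL 1 this was 3 of the 5, and without OL 2 all 5. None passed the threshold, and 2 were lower at an unadjusted p-value below 0.05. MAT2A, the synthase form of tissues other than adult liver, was at 5.87 and 5.64 CPM in YL and at 3.92 and 2.49 CPM in OL (log2 fold change -0.70 ± 0.22, SE, adjusted p = 0.305 in limma, and -0.46 without OL 2). AHCYL1, a relative of the enzyme that clears S-adenosylhomocysteine, was at 8.31 and 7.05 CPM against 4.19 and 5.12 CPM. MAT1A, the synthase form of liver, differed most between the old livers, with 71.9 CPM in OL 1 and 265.3 CPM in OL 2 around 156.8 and 187.0 CPM in YL. Its log2 fold change was -0.31 ± 0.75 (SE, adjusted p = 0.891 in limma), and it turned to 0.63 without OL 1 and was -1.24 without OL 2. MAT2B, the regulatory subunit, had a log2 fold change of -0.41, which was -0.63 without OL 1 and -0.19 without OL 2.

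Among other readers and cofactors, 10 of 16 had an identifier and 9 were tested, none of them past the threshold. At an unadjusted p-value below 0.05, MBD3 was higher and CTCF lower. MBD3, a relative of MBD2 that enters NuRD in its place, was at 15.3 and 14.2 CPM in YL and at 20.2 and 21.3 CPM in OL (log2 fold change 0.47 ± 0.12, SE, adjusted p = 0.264 in limma). CTCF, whose binding to DNA is sensitive to methylation, was at 4.71 and 4.23 CPM in YL and at 2.89 and 1.82 CPM in OL (log2 fold change -0.72 ± 0.22, SE, adjusted p = 0.291 in limma). MBD1 had a log2 fold change of 0.34 with old livers above young livers.

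In the NuRD complex 9 of 11 subunits had an identifier, with a median log2 fold change of 0.06. None passed the threshold and 1, the scaffold GATAD2A, was higher at an unadjusted p-value below 0.05, at 0.784 and 1.098 CPM in the young and 1.869 and 1.615 CPM in OL. HDAC2, a deacetylase of the complex, was lower in both old livers (log2 fold change -0.58 ± 0.20, SE, adjusted p = 0.325 in limma, and -0.38 without OL 2). The median was -0.32 without YL 2 and 0.38 without YL 1, so that the list had no stable direction.

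For base excision repair and demethylation partners 10 of 13 genes had an identifier and 9 were tested, with a median log2 fold change of 0.07 (-0.06 without OL 1) and none past the threshold. NEIL2, a glycosylase, was higher at an unadjusted p-value below 0.05 (2.42 and 2.71 against 4.50 and 3.59 CPM). GADD45B, a stress-induced factor linked to demethylation, was at 0.588 and 1.883 CPM in YL and at 13.11 and 3.29 CPM in OL. OL 1 was the high library, and the log2 fold change of 1.86 ± 0.76 (SE, adjusted p = 0.383 in limma) was 1.002 without it. DESeq2 called GADD45B with an adjusted p-value of 0.0478, the lowest of 14 alternatives that reached up to 0.599. POLB, the repair polymerase, had a log2 fold change of -0.48 with old livers below young livers, which was -0.28 without YL 1.

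Of 9 genes that set or remove the histone methylation read by DNMT3A, DNMT3B and UHRF1, 6 had an identifier. The median log2 fold change was 0.00 and 0 had an unadjusted p-value below 0.05 in limma. NSD1 (-0.41) and SETD2 (-0.31) had old livers below young livers.

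**Figure D4:**
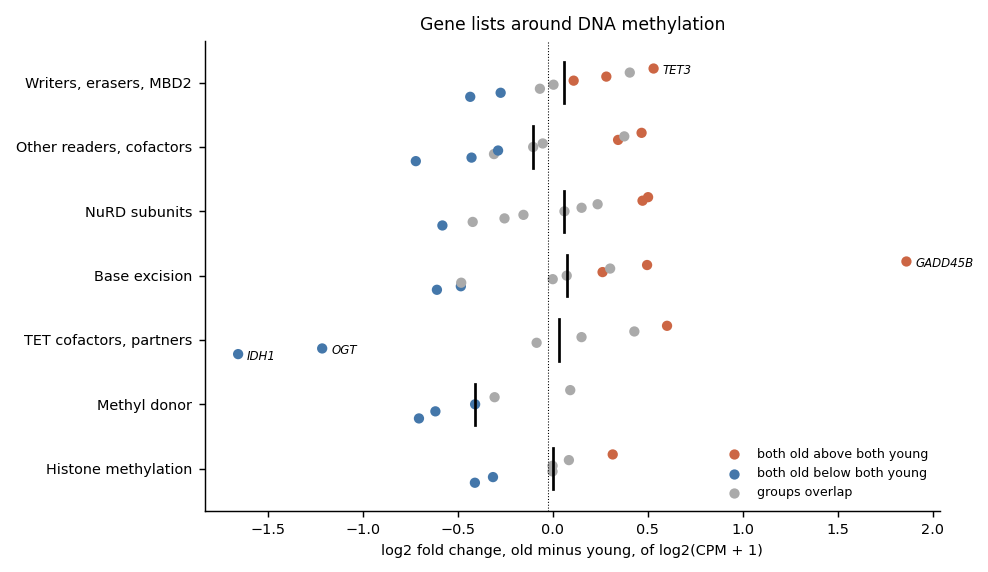
Log2 fold change of log2(CPM + 1), old minus young (x axis), of each tested gene of the 7 lists (rows), coloured by whether the age groups overlap, with the median of each list as a black bar and that of all mRNAs as a dotted line. IDH1 (-1.66) and OGT (-1.21) lie at the low end of the TET cofactor list, GADD45B at 1.86 is the highest gene, and the 8 writers, erasers and reader lie between -0.43 and 0.53.

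The profile of DNMT1 over the 4 libraries was compared with those of 8191 mRNAs with a symbol and a mean log2(CPM + 1) within 1 of it. The smallest Euclidean distances between centred profiles were those of PGAM2 (0.032), SETD1A (0.037) and ADA (0.046), over 4 libraries. These genes were low, with PGAM2 at 0 to 0.374 CPM, SETD1A at 0.058 to 0.439 CPM and ADA at 0.266 to 0.766 CPM. Whether such distances are unusual for the nearest of so many mRNAs was not tested.

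The miRNAs of the same livers were sequenced in separate libraries, and 8 miRNAs that are known to target DNMT, TET or TDG transcripts were read from that table, whose normalized values are not on the CPM scale. In limma 0 of 867 miRNAs passed the threshold (0%), and at an unadjusted p-value below 0.05 there were 72 on the higher side and 31 on the lower. The exact test of edgeR on recovered reads called 26 and the quasi-likelihood test 0. None of the 8 was called in any test and none had an unadjusted p-value below 0.05 in limma. On the normalized values the age groups overlapped for each of them. These values summed to 18862240 in YL 1, 11220895 in YL 2, 15028496 in OL 1 and 15271141 in OL 2. As a share of all miRNA reads of a library, both old livers lay below both young livers for miR-29a, miR-148b and miR-22. For miR-26b they lay above. On the normalized values of all miRNAs, both old libraries were higher than both young ones for 28.3% and lower for 16.1%. These percentages were not taken for the shares of reads. The orders by share thus have no background here, and whether they are unusual among miRNAs was not tested.

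miR-29a, which targets DNMT3A and DNMT3B, was at 332970 and 217483 in YL 1 and YL 2 and at 243713 and 245787 in OL 1 and OL 2. On this scale both old livers lay between the young livers. By share of reads miR-29a was at 1.77% and 1.94% in YL and at 1.62% and 1.61% in OL. Its log2 fold change was -0.14 ± 0.60 (SE, adjusted p = 0.951 in limma). miR-148a, which targets DNMT1 and DNMT3B, spread the most, with 366850 and 125330 in YL against 221498 and 86021 in OL. Its log2 fold change was -0.64 ± 0.78 (SE, adjusted p = 0.805 in limma), which turned to 0.14 without YL 1. miR-26a and miR-26b, which target TET genes and TDG, had log2 fold changes of 0.14 and 0.58. That of miR-26b ran from 0.06 without YL 2 to 1.11 without YL 1, and that of miR-26a turned to -0.07 after rescaling with TMM factors. That rescaling moved the median log2 fold change of all miRNAs from 0.18 to -0.01.

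**Figure D5:**
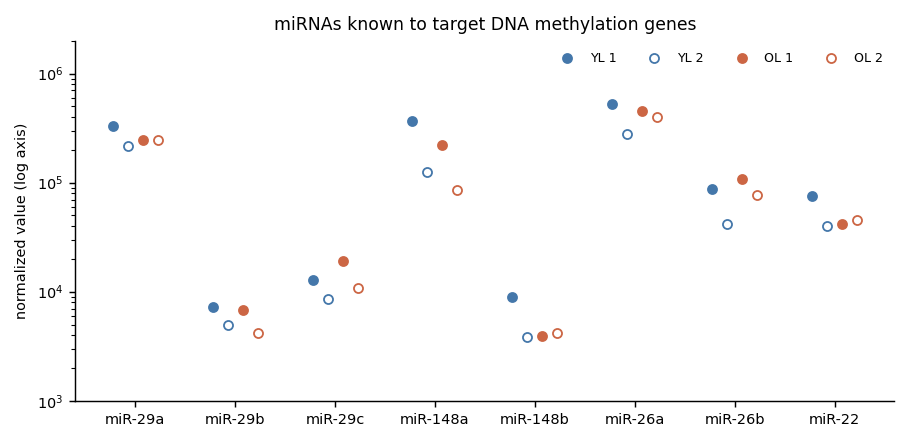
Normalized value (y axis, log scale) of 8 miRNAs known to target DNA methylation genes (x axis) in the 4 small RNA libraries. On this scale the old and young livers overlap for each miRNA, and YL 1 lies above YL 2 throughout. By share of reads YL 1 lies below YL 2 for miR-29a, miR-29b and miR-29c.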

How the data were processed

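Liver RNA of 2 young and 2 old sows was sequenced by the authors after rRNA depletion, 1 library per sow, and small RNA in 1 further library each. Per the labels and the study's methods, reads were aligned to Sscrofa10.2 with TopHat2 2.0.14, assembled with StringTie 1.2.3 and quantified with Salmon 0.6.0. The deposited CPM of mRNAs and lncRNAs, which the authors call TPM, fell on whole multiples of a single step in each library for at least 99.916% of values above 0 (tolerance 0.02 reads beside rounding), so whole reads were recovered. The deposited miRNA signal was made by the authors with mirdeep2, scaled to a total not given in the sources used here, and gave whole reads for 100% of values. The circRNA table names no host gene and was not used here.

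Symbols were taken from an Ensembl table, which held one for 11654 of the 21607 identifiers. Fold changes were fitted with limma 3.58.1 in R 4.3.3 on log2(value + 1) over features above 0 in at least 2 libraries, two-sided, with Benjamini-Hochberg adjustment over the whole table. edgeR 4.0.16 (TMM, exact and quasi-likelihood tests) and DESeq2 1.42.0 were run on recovered reads. All were first checked on counts simulated with known changes. There the error of the fold was judged only on genes with levels above those of the DNA methylation genes. Other alternatives were the pseudocount, filter, scaling, variance model, replicate block and leaving out each library. Tables and figures were made in Python 3.11.15 (matplotlib 3.10.9, scipy 1.17.1, pandas 2.3.3).

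Genes named from the 6 surrounding lists were, per list, up to 3 with no overlap between ages and a mean of at least 1 CPM, by smallest p-value, and 1 gene of the TET cofactor list is not reported here. MAT1A and the marker genes were added after their values were seen. The members and lists were chosen with earlier results of these data known. No pair of libraries agreed within sampling noise (chi-square over genes). The sows were unrelated, so each is a separate animal.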

Additional observations from a re-analysis of the deposited data

How the results depend on the processing

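With 2 sows per age, 1 library decided several values. The number of mRNAs called was 0 in limma and 0 with every library left out in turn, 2 with a mean CPM of at least 1 required, 534 in the exact test of edgeR (457 higher and 77 lower) and 880 in DESeq2 (683 and 197), and the cause was not tested. TET3, DNMT1, DNMT3B, TET1, MBD2 and TDG kept their direction in every alternative run, 13 or 14 each, and none of the 8 genes was called in any. DNMT3A turned to 0.053 with TMM factors, 0.037 with the size factors of DESeq2, 0.0556 and 0.0555 in the exact and quasi-likelihood tests of edgeR and 0.028 in DESeq2, and ranged from -0.30 to 0.16 with 1 library left out. UHRF1 ranged from -0.10 to 0.11. The 16 genes named by rule from the other lists kept their direction in every alternative run. That rule took only genes without overlap between the ages, whose direction cannot turn when 1 library is left out. The same holds for TET3, DNMT1, DNMT3B, TET1 and MBD2. MAT1A ranged from -1.24 without OL 2 to 0.628 without OL 1, and turned to 0.1685 in both tests of edgeR and 0.145 in DESeq2. With TMM factors POLB was -0.31, NSD1 -0.27, MAT2B -0.22, SETD2 -0.15 and MAT1A -0.11. The miRNAs called were 0 in limma, 26 in the exact test of edgeR, which was chosen after seeing the data, and 0 to 36 with 1 library left out (22 without OL 1 and 36 without OL 2). With 1 library left out, miR-29a ranged from -0.44 to 0.17, miR-29b from -0.52 to 0.19, miR-148a from -1.41 to 0.14, miR-148b from -1.15 to 0.089, miR-26a from -0.32 to 0.59, miR-26b from 0.06 to 1.11, miR-29c from 0.04 to 0.88 and miR-22 from -0.80 to 0.12, and miR-26a was -0.068 with TMM factors and -0.0747 in both tests of edgeR. A lone library of an age was then taken to vary like the others.

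The sows share only replicate numbers. Deviations of libraries with the same number correlated across features at 0.0902 for mRNAs and -0.0158 for miRNAs, and with a replicate block 0 mRNAs and 0 miRNAs were called. At an unadjusted p-value under 0.05 the block left 1065 mRNAs higher and 1360 lower.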
